A study of Gallus gallus with 12 samples.

Results

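Normal breast muscle of broiler chickens that carried transcripts of the female-specific W chromosome was compared with normal breast muscle that did not. The members are the 6 arrays of the normal phenotype, out of 12 arrays in all. The arrays of each group were chosen by the measured level of HINTW, a W-linked gene: an array whose brightest HINTW row had a log2 level above 6 was taken to carry W transcripts. This gave 3 arrays with W transcripts (normal birds 1, 4 and 5) and 3 without (normal birds 2, 3 and 6). The split was made from measured values, so the HINTW level and the levels of other W-linked genes describe the groups and test nothing.

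Each array held RNA of the white breast muscle Pectoralis major from a different bird, so the replicates are separate animals. All birds were of the hybrid Ross 708, a fast-growing meat chicken, shared a commercial flock whose live weight averaged 3.7 kg, and were sampled after slaughter without experimental treatment. Their age was not given in the labels used here. The other 6 birds, called affected below, were labelled with white striping / wooden breast myopathy, and none of their arrays carried W transcripts. They enter here as further arrays without W transcripts and, in a fit of all 12 arrays, as a group of their own. Any part of the myopathy in their levels was not tested.

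The labels call every bird male. The 3 arrays with W transcripts go against that label, and the groups are therefore named by the transcripts and not by sex. The labelled tissue was checked against markers of skeletal muscle fibres: 4 of the 8 markers had a cluster of their own (ACTA1, TNNT3, TNNI2 and TNNC2), and these had log2 levels of 11.3 to 12.7 on the 6 normal arrays.

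In birds, males carry a pair of Z chromosomes and females carry a Z and a W. Chickens are known for incomplete dosage compensation: females do not raise the output of their lone Z chromosome as a whole to that of males, and the ratio varies from gene to gene. The W chromosome keeps a small set of genes, most of them with a related copy on the Z, called gametologs, which are expressed in many tissues.

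The table gave a log2 level for 20804 transcript clusters, each a group of probes for a transcript. Of these, 545 clusters (516 genes) were placed on the Z chromosome, 18 clusters (14 genes) on the W and 11707 on autosomes. Array medians ran from 4.05 to 4.16 over the 12 arrays. Correlations between the 6 normal arrays ran from 0.958 to 0.984 over all clusters. Differences are given throughout as birds with W transcripts minus birds without, on the log2 scale, with limma's standard error (SE) and n = 3 against 3. Values are listed for birds 1, 4 and 5 and then for birds 2, 3 and 6.

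HINTW, which encodes a W-specific member of the histidine triad nucleotide-binding family, had log2 levels of 8.51, 9.41 and 9.27 in birds 1, 4 and 5. In birds 2, 3 and 6 it stood at 2.83, 2.99 and 2.96, and in the 6 affected birds at 2.46 to 2.71. The array just inside the rule was therefore bird 1 at 8.51 and the one just outside was bird 3 at 2.99, with no array near the threshold.

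ATP5F1AW, the W copy of the alpha subunit of mitochondrial ATP synthase, separated the same arrays, with levels of 7.82, 7.68 and 8.11 against 4.11, 3.36 and 3.79. LOC430766 had levels of 7.38, 7.39 and 7.90 against 4.51, 4.04 and 3.90, and LOC426615 had 4.63, 5.49 and 5.33 against 2.41, 2.32 and 2.38. UBAP2L2, listed with the synonym UBAP2W, had 4.51, 3.11 and 4.01 against 2.23, 2.17 and 2.02. Neither these genes nor HINTW overlapped between the groups.

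LOC769000, LOC427025 (listed with the synonyms NIPBL and SCC2W), LOC427010 and LOC425347 were also higher in all 3 birds with W transcripts, by 1.47, 1.43, 1.02 and 0.65. These are the values of the brightest cluster of each gene. Another cluster of LOC769000 differed by 2.37, and further clusters of LOC427025 by 0.78, 1.09 and 2.69. In all, 9 of the 14 genes placed on the W were higher in each bird with W transcripts than in each normal bird without, against 7.27% of all clusters. At the level of clusters 13 of 18 were above all 9 arrays without W transcripts, against 1.54% of all clusters. Since HINTW chose the arrays, nothing is read from these counts.

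The other 5 genes placed on the W did not follow that pattern. NEDD4L, a ubiquitin ligase, had levels of 5.89, 6.16 and 6.21 against 6.72, 6.25 and 6.65, lower in the birds with W transcripts without overlap. LOC426220 was lower by a smaller amount (-0.20). MBD2, which binds methylated DNA, MIR7B and ST8SIA3L overlapped between the groups. NEDD4L and MBD2 were bright on arrays without W transcripts too, at 6.51 to 6.99 and 6.53 to 6.85 in the affected birds. The place of these genes on the W comes from the gene table, and which gene copy their probes match was not tested. The plot of the genes placed on the W shows both patterns.

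**Figure D1:**
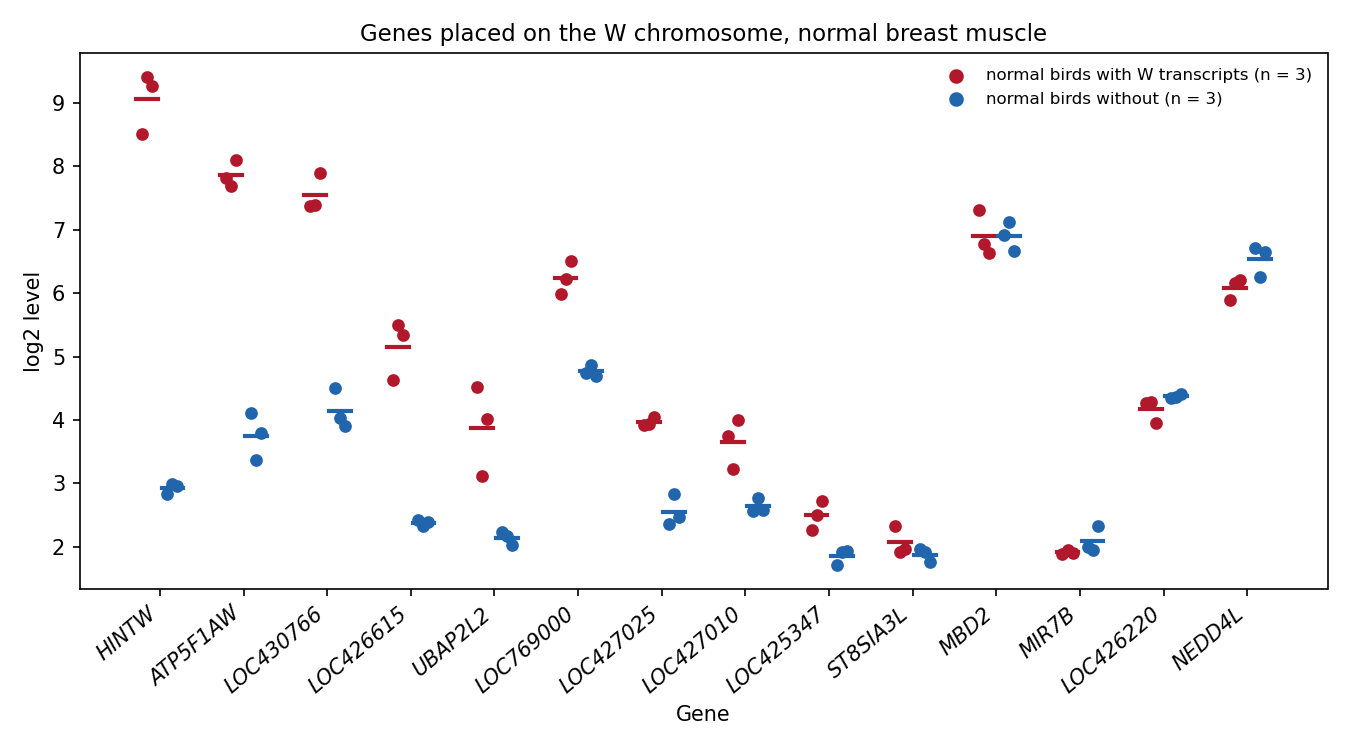
Log2 levels of the 14 genes placed on the W chromosome in the 6 normal birds, with 1 point per bird and a bar at each group mean. The first 9 genes from the left are higher in all 3 birds with W transcripts, HINTW at 8.51 to 9.41 against 2.83 to 2.99, whereas MBD2, MIR7B and ST8SIA3L overlap and NEDD4L and LOC426220 are lower.

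Over all clusters 48 of 20804 (0.231%) passed an adjusted p of 0.05 in limma's test, 44 of them higher (0.211%) and 4 lower (0.0192%) in the birds with W transcripts. At an unadjusted p under 0.05 there were 1933 (9.29%). Of the 48, 8 belonged to named W-linked genes, 6 to named Z-linked genes and 3 to named autosomal genes. Another 16 listed several symbols, of which 14 listed HINTW beside a second W-linked gene, with differences of 4.94 to 6.37. Of those 14, 11 were exact repeats of a row, so they are not separate measurements. HINTW chose the groups, so the calls of these 14 clusters and of the 8 named W-linked ones describe the split and test nothing.

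The remaining 15 had no gene symbol, and all were higher in the birds with W transcripts, by 0.94 to 6.31. The unnamed cluster 15556859 had levels of 10.08, 10.65 and 10.49 against 4.10, 4.08 and 4.10. A second one, 15556870, had 9.12, 9.95 and 9.64 against 3.62, 3.65 and 3.43. Their chromosome is not given by the annotation used here. Differences of 2 or more without overlap between the groups were found for 43 of the 20804 clusters, all of them higher in the birds with W transcripts. Of these, 15 had no symbol, 13 had 1 symbol and 15 listed several. HINTW, which chose the groups, and ATP5F1AW were among them, so this count describes the split and tests nothing.

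Z-linked genes as a group were lower in the birds with W transcripts. The median difference over the 545 Z-linked clusters was -0.13, a ratio of 0.915, with 377 clusters (69.2%) below 0. The autosomal median was 0.0036, with 49.0% of clusters below 0. The medians of the 29 single autosomes with at least 40 named clusters ran from -0.036 to 0.034. The Z median therefore lay outside the range of these 29 autosomes. In bulk muscle, fewer cells of a type and less RNA per cell cannot be told apart.

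The groups did not overlap for 183 Z-linked clusters in the lower direction (33.6%) and for 27 in the higher direction (4.95%). The shares over all 20804 clusters were 6.81% and 7.27%. Set against all 9 arrays without W transcripts, affected birds included, 123 Z-linked clusters (22.6%) were lower in each of the 3 birds with W transcripts, compared with 334 of all clusters (1.61%) and 126 autosomal ones (1.08%). An unadjusted p under 0.05 in the lower direction was reached by 166 Z-linked clusters (30.5%) and by 479 autosomal clusters (4.09%), compared with 4.54% of all clusters.

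The size of the Z-linked difference went with the level of the cluster. Below a mean log2 level of 3 the Z-linked median was 0.0067 (132 clusters). It was -0.087 between 3 and 4 (100 clusters), -0.18 between 4 and 5 (117 clusters) and -0.45 between 5 and 6 (106 clusters). Above these levels the steps were smaller, at -0.47 between 6 and 7 (46 clusters) and -0.55 between 7 and 8 (30 clusters). The 14 clusters at 8 or more had a median of -0.56, close to the value of the bin before it. Autosomal medians moved from 0.036 at 3 to 4 to -0.093 at 8 or more, so the Z-linked median less the autosomal one went from -0.014 at the lowest levels to -0.46 between 7 and 8.

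**Figure D2:**
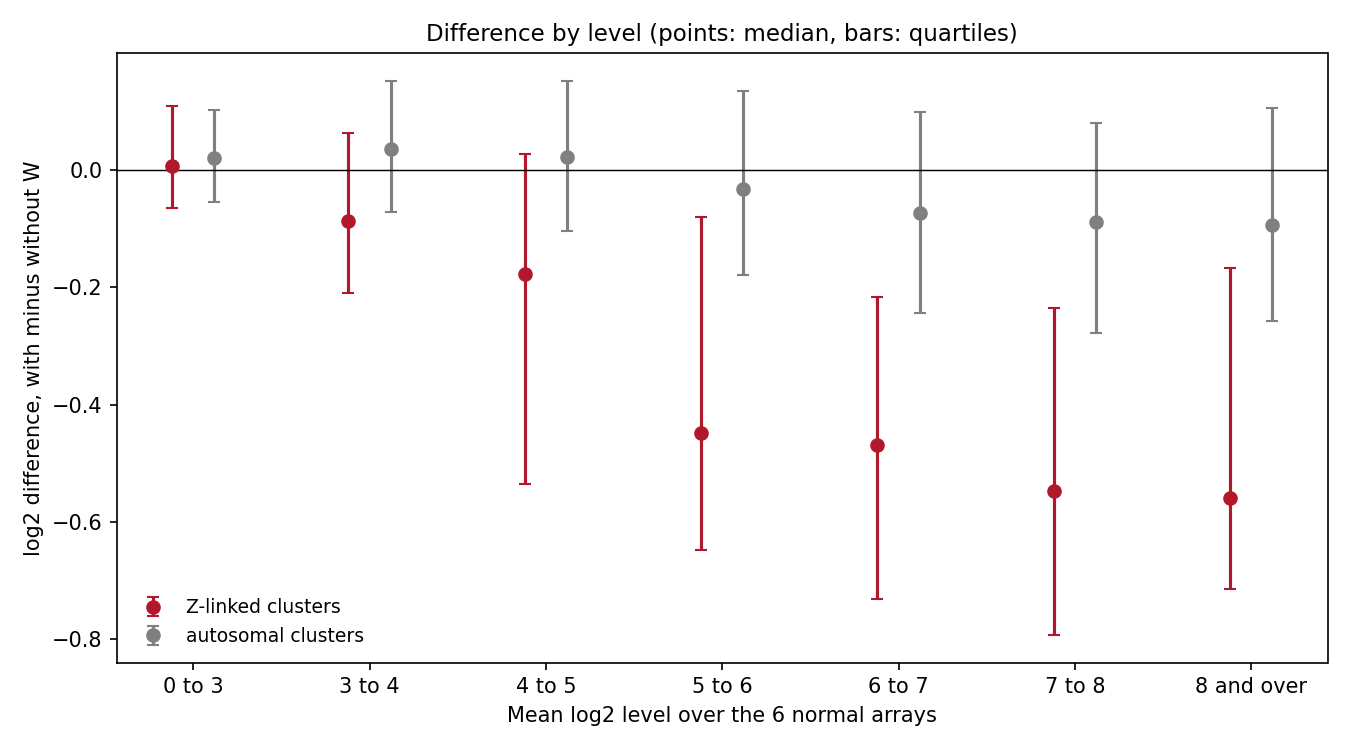
Median log2 difference, birds with W transcripts minus birds without, for Z-linked and autosomal clusters in 7 ranges of mean log2 level over the 6 normal arrays, with bars from the lower to the upper quartile. The Z-linked medians go from 0.0067 below a level of 3 to -0.55 between 7 and 8, while the autosomal medians stay between -0.093 and 0.036.

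At a mean level of 5 or more, a bound chosen after the values were seen, 196 Z-linked clusters remained. Of these, 169 (86.2%) were below 0 and the median difference was -0.46, a ratio of 0.727. The 4508 autosomal clusters at that level had a median of -0.059, with 59.4% below 0. Relative to them the Z-linked ratio was 0.757, and it ran from 0.749 to 0.767 when each of the 6 birds was left out in turn, with 159 to 169 clusters below 0. Lower values without overlap were found for 109 of the 196 (55.6%) and higher ones for 4 (2.04%), compared with 11.3% and 6.68% of the autosomal clusters.

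The genes differed widely in how much lower they were. Of the 196 clusters, 10 were below -1, 80 lay between -1 and -0.5, 43 lay within 0.2 of equal levels and 16 were above 0.2. The lowest was ZFAND5, at -1.37. The quartiles of the Z-linked differences were -0.71 and -0.13, compared with -0.22 and 0.11 for the autosomal clusters.

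Bird by bird, the median level of these Z-linked clusters less that of the autosomal clusters was -0.27, -0.35 and -0.38 in birds 1, 4 and 5. It was 0.075, 0.031 and 0.062 in birds 2, 3 and 6, and 0.051 to 0.11 in the 6 affected birds. The 3 birds with W transcripts stood below all 9 others without overlap, and birds 4 and 5 were lower than bird 1.

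**Figure D3:**
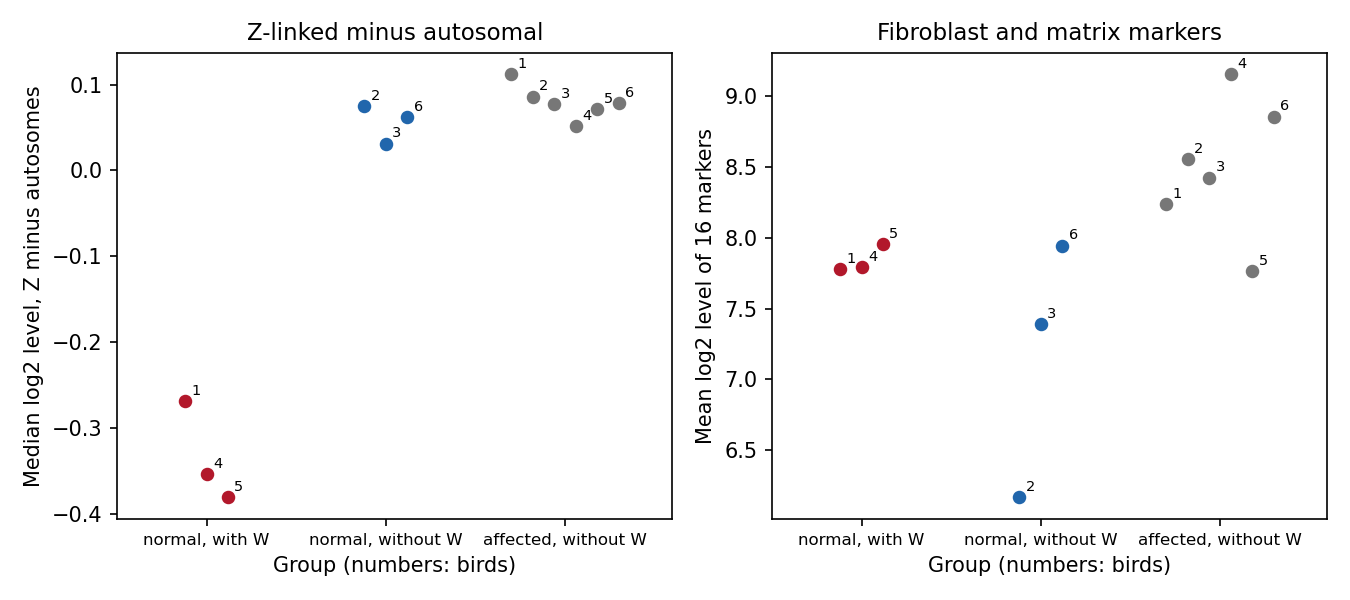
Left, the median log2 level of 196 Z-linked clusters less that of 4508 autosomal clusters on each array; right, the mean log2 level of 16 fibroblast and matrix markers on each array, with numbers naming the birds. On the left the 3 normal birds with W transcripts lie at -0.38 to -0.27 and all others at 0.031 to 0.11, whereas on the right the normal groups overlap and normal bird 2 is low at 6.17.

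Along the Z chromosome the genes at that level were taken in their order and cut into 9 windows of 21 neighbours. All 9 medians were below 0. The most negative was -0.63, from ARRDC3 to CR1, followed by -0.59 from NAA35 to FAM174A and -0.55 from NARS to DCTN3. The least negative were -0.28 from CNTFR to RPL37, -0.29 from C7 to SERINC5 and -0.33 from LNPEP to FAM172A. The other 3 windows lay between -0.46 and -0.36. Genes near equal levels and genes far below them were both found along the whole gene order, as the plot of differences along the Z shows.

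**Figure D4:**
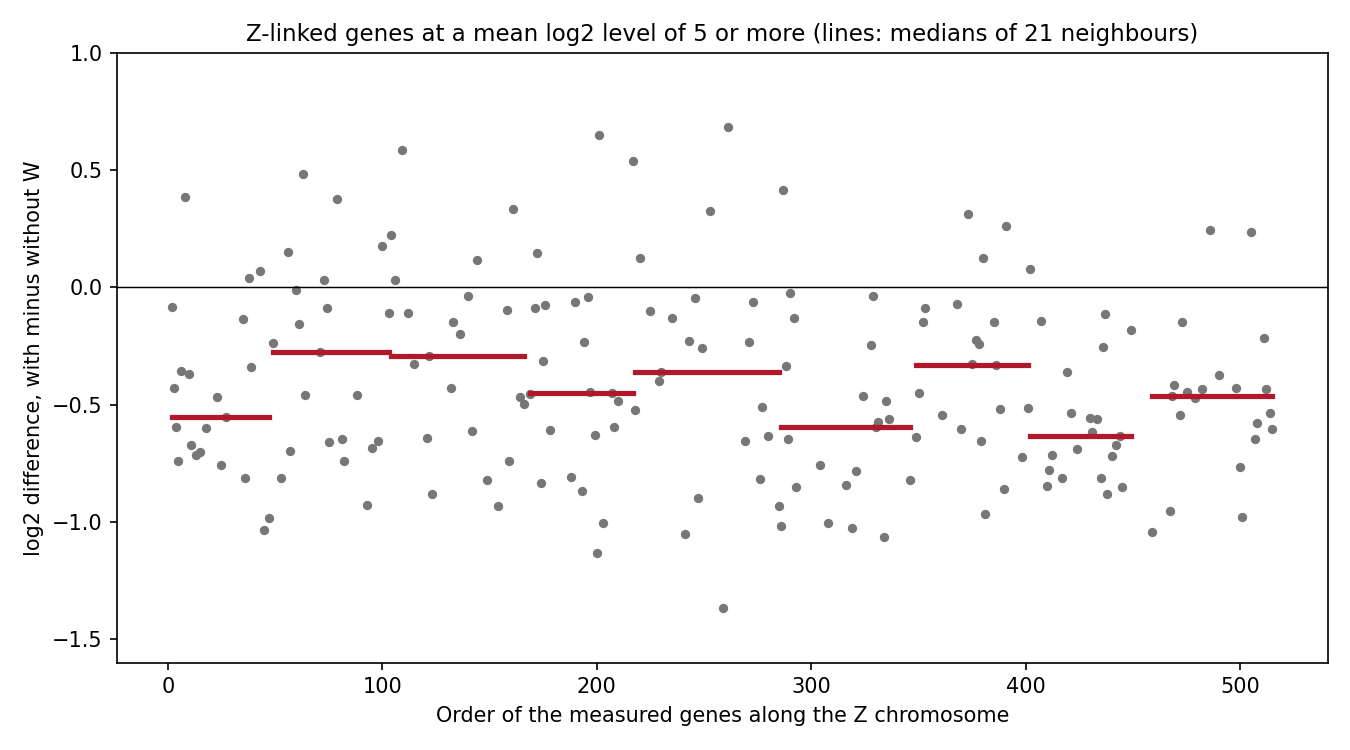
Log2 difference, birds with W transcripts minus birds without, of 189 Z-linked genes with a mean log2 level of 5 or more, in their order along the Z chromosome, with a line at the median of each window of 21 genes. All 9 medians lie below 0, from -0.63 to -0.28, and single genes scatter from -1.37 to above 0.

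Only 6 of the 545 Z-linked clusters (1.1%) passed limma's adjusted threshold, 4 lower (0.734%) and 2 higher (0.367%). The 4 that fell were WDR36, SPTLC1, DCTN3 and AUH. WDR36, needed for processing ribosomal RNA, had levels of 4.75, 5.04 and 5.02 against 6.06, 5.94 and 6.00, a difference of -1.06 (SE 0.13, limma adjusted p = 0.0193). SPTLC1, a subunit of the enzyme that starts sphingolipid synthesis, had 5.12, 5.23 and 5.07 against 6.31, 6.01 and 6.18 (-1.03, SE 0.13, limma adjusted p = 0.021). For both genes the gap between the groups was wider than the range within either group.

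DCTN3, a subunit of dynactin, which links dynein to its cargo, had levels of 6.44, 6.56 and 6.63 against 7.51, 7.67 and 7.41 (-0.98, SE 0.12, limma adjusted p = 0.027). AUH, a mitochondrial enzyme of leucine breakdown that also binds RNA, had 6.11, 6.25 and 6.23 against 7.05, 7.11 and 6.95 (-0.84, SE 0.11, limma adjusted p = 0.0413). In the 6 affected birds, all without W transcripts, the 4 genes lay at 5.96 to 6.33, 5.95 to 6.35, 7.41 to 7.54 and 6.81 to 7.50, above the 3 birds with W transcripts. When a bird was left out, whichever it was, none of the 4 kept an adjusted p under 0.05. WDR36 then had limma adjusted p-values of 0.0609 to 0.104 and AUH of 0.0994 to 0.19, while the differences stayed at -1.12 to -0.97 and -0.89 to -0.80.

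The limma fit of all 12 arrays as 3 groups estimated the spread from the affected birds as well as the normal ones. It gave the same differences and called 101 clusters (0.485%), 57 of them higher (0.274%) and 44 lower (0.211%). On the Z 35 were called (6.42%), of which 33 were lower in the normal birds with W transcripts (6.06%) and 2 higher (0.367%). The 4 genes above passed there too. The others included CCNH, PLAA, ALDH7A1, HSDL2, RASA1, MRPS27 and TTC37, with differences of -1.13 to -0.72. Between that fit and the 6-array one, 43 called clusters were shared.

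Among Z-linked genes next in order by p in the 6-array fit were MSH3, MRPS27, TTC37, CCNH, PLAA and ZFAND5, with limma adjusted p-values of 0.0606 to 0.0845. MSH3, a mismatch repair protein, had levels of 3.82, 3.83 and 3.94 against 4.87, 4.58 and 4.99. MRPS27, of the small subunit of the mitochondrial ribosome, had 4.99, 5.01 and 4.97 against 6.49, 6.00 and 5.87. ZFAND5, a ubiquitin-binding protein that acts with the proteasome, had 6.26, 6.80 and 6.32 against 8.23, 7.63 and 7.61. The groups did not overlap for any of the 6 genes, beside 33.6% of Z-linked clusters that were lower without overlap. The 6 were picked by p from the same values, so nothing is read from this. TTC37 (-0.72) belongs to the complex that feeds RNA to the exosome, CCNH (-0.85) is the cyclin of the kinase that activates cell-cycle kinases, and PLAA (-1.04) binds ubiquitin.

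The Z copies of genes that also have, or are thought to have, a copy on the W formed a list of 15 Z-linked genes with a measured cluster. Of these, 13 were below 0 and 9 were lower without overlap, beside 6.81% of all clusters and 33.6% of Z-linked ones. Their median was -0.53, a ratio of 0.690, compared with 0.010 over all clusters and -0.13 over all those on the Z. Most members were bright, and these values were close to those of Z-linked clusters at a level of 5 or more, of which 86.2% were below 0 and 55.6% lower without overlap, with a median of -0.46. When each bird was left out, the median over all 17 measured members of the list, 2 of them not on the Z, ran from -0.62 without bird 5 to -0.35 without bird 1. None passed limma's adjusted threshold with 6 arrays, the lowest adjusted p being 0.0845, and 3 passed with 12 (RASA1, RPL17 and UBAP2). With 12 arrays 6.42% of Z-linked clusters and 0.485% of all clusters were called.

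ATP5F1AZ, the Z copy of the ATP synthase alpha subunit, had levels of 7.66, 7.87 and 8.06 against 8.43, 8.69 and 8.74, a difference of -0.76 (SE 0.15, limma adjusted p = 0.157). No overlap was seen. UBAP2, a ubiquitin-associated protein, had 6.24, 6.42 and 6.78 against 7.09, 7.30 and 7.48 (-0.81, SE 0.17, limma adjusted p = 0.202). RASA1, which switches off Ras, had 5.51, 5.57 and 5.52 against 6.43, 6.13 and 6.37 (-0.78, SE 0.12, limma adjusted p = 0.0845).

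TXNL1, a thioredoxin-like protein of the proteasome, HNRNPK, an RNA-binding protein, and CKMT2, the mitochondrial creatine kinase of muscle, differed by -0.74, -0.63 and -0.69 without overlap. MIER3 and GOLPH3 were also lower without overlap, by -0.53 and -0.28. In the affected birds, none with W transcripts, CKMT2 (6.94 to 8.56) and GOLPH3 (7.25 to 7.53) reached the levels of the birds with W transcripts. TXNL1 (7.41 to 7.92), HNRNPK (7.53 to 7.92) and MIER3 (3.11 to 3.47) stayed above them. BTF3, PIAS2, SUB1 and ZSWIM6 were below 0 with overlapping groups. ARRDC3 (0.08) and ZNF532 (0.42) were above 0, and both overlapped.

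RPL17, a protein of the large ribosomal subunit, was measured by more than 1 cluster, and their differences had opposite signs. The brighter cluster had levels of 8.67, 8.38 and 8.50 against 9.19, 9.29 and 9.21 (-0.71, SE 0.12, limma adjusted p = 0.0993). The other had 7.60, 7.03 and 7.61 against 3.98, 3.53 and 2.95, a difference of 3.92 that passed the test. Which gene copy the probes of each cluster match was not tested, so nothing is read from the call of the cluster that rose.

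Only 1 other named cluster on the Z rose, that of LOC100859072. Its levels were 6.03, 5.88 and 6.24 against 2.42, 1.81 and 2.16, a difference of 3.92. In the affected birds, none with W transcripts, it lay at 1.59 to 2.06. Its place on the Z comes from the gene table, and which gene copy its probes match was not tested, so nothing is read from its call. AK3, which converts AMP in the mitochondrion, had 8.10, 8.25 and 8.0 against 7.53, 7.49 and 7.70. The groups did not overlap for AK3, and its difference of 0.54 (SE 0.12) had a limma adjusted p of 0.241.

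LVRN, an aminopeptidase known from the placenta in humans, had levels of 5.43, 4.74 and 4.33 against 3.17, 3.11 and 3.30 (1.64, SE 0.26, limma adjusted p = 0.0824). In the affected birds it lay at 4.64 to 7.08, reaching the levels of the birds with W transcripts. The affected birds carried no W transcripts but had the myopathy, whose part was not tested. The other Z-linked genes with the smallest p in that direction were KIF24, CENPH, AVR2, GOLM1, SEC11C and EMB. Their differences were 0.38 to 0.69, with limma adjusted p-values of 0.369 to 0.466. For each of these genes too the affected birds reached the levels of the birds with W transcripts, with GOLM1 at 5.97 to 7.45.

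Z-linked genes with known work in muscle formed a list of 35 measured genes. Here 20 were below 0, 12 were lower without overlap, 1 was higher without overlap, and the median was -0.11. Over all Z-linked clusters 69.2% were below 0, 33.6% were lower without overlap and the median was -0.13. Over all clusters 6.81% were lower without overlap. Most members of the list were bright. Of Z-linked clusters at a level of 5 or more, 86.2% were below 0 and 55.6% lower without overlap, with a median of -0.46. The median of the list was thus near that of all Z-linked clusters and less negative than that of the bright ones. No member of the list passed limma's adjusted threshold with 6 arrays (lowest adjusted p = 0.0703), and 2 did with 12 arrays (ALDH7A1 and RPL17). The 12-array fit called 6.42% of Z-linked clusters and 0.485% of all clusters, so nothing is read from these 2. The members ranged from -0.98 (ALDH7A1) to 0.65 (MAP1B), with 15 of the 35 above 0.

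Among metabolic genes, ALDH7A1, an aldehyde dehydrogenase of lysine breakdown, had levels of 6.90, 6.91 and 6.84 against 8.02, 7.58 and 8.0 (-0.98, SE 0.15, limma adjusted p = 0.0703). FBP2, the muscle fructose bisphosphatase, had 8.86, 9.13 and 9.21 against 9.90, 9.76 and 10.09 (-0.85, SE 0.15, limma adjusted p = 0.0993). ACAA2, which carries out the last step of mitochondrial fatty acid oxidation, had 5.77, 5.72 and 5.60 against 6.30, 6.48 and 6.32 (-0.67, SE 0.12, limma adjusted p = 0.111). All 3 genes were lower in each bird with W transcripts.

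The respiratory chain genes on the Z gave the same kind of values. COX7C, of cytochrome c oxidase, had levels of 7.75, 7.87 and 7.91 against 8.36, 8.68 and 8.63 (-0.71, SE 0.13, limma adjusted p = 0.118). NDUFS4, of complex I, had 7.20, 7.11 and 7.20 against 7.66, 8.0 and 7.77 (-0.64, SE 0.13, limma adjusted p = 0.157). NNT, the nicotinamide nucleotide transhydrogenase of the inner mitochondrial membrane, differed by -0.33 without overlap. In the affected birds NNT (7.15 to 7.75) reached the levels of the birds with W transcripts, while NDUFS4 (7.44 to 8.04) stayed above them. For COX7C and ACAA2 the affected birds lay at 7.91 to 8.61 and 6.70 to 7.14, reaching lower and higher, respectively, than the normal birds without W transcripts.

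Of the receptor and signalling genes, LIFR, a cytokine receptor chain, VLDLR, a lipoprotein receptor, and PDE4D, which degrades cyclic AMP, differed by -0.65, -0.60 and -0.61 without overlap. RPS23, of the small ribosomal subunit, differed by -0.36 without overlap, whereas RPS6 and RPL37 overlapped (-0.23 and -0.11). In the affected birds, none with W transcripts, LIFR (6.25 to 7.11), VLDLR (6.61 to 7.60) and PDE4D (5.59 to 6.21) reached the levels of the birds with W transcripts. RPS23 (9.08 to 9.49) stayed above them. The limma adjusted p-values of these genes were 0.290 or higher.

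MEF2C, a transcription factor of muscle differentiation, had levels of 9.16, 9.43 and 9.25 against 9.46, 9.13 and 9.67. Its difference was -0.14 with a 95% interval of -0.52 to 0.23. OXCT1, which lets muscle use ketone bodies, had a difference of 0.03 (95% interval -0.35 to 0.42), and RPL37 an interval of -0.43 to 0.21. GNE, of sialic acid synthesis, and HMGCS1, of cholesterol synthesis, differed by 0.02 and -0.11, both with overlap. For these genes a difference as large as that of FBP2 lay outside the interval.

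Genes above 0 with overlapping groups included MAP1B, a microtubule protein of regenerating fibres (0.65), PIK3R1, the regulatory subunit of phosphoinositide 3-kinase (0.33), FST, which binds myostatin (0.32), and LPL, lipoprotein lipase (0.31). CAST, the inhibitor of calpains (0.26), LOX, a collagen crosslinking enzyme (0.23), and ACO1, the iron-regulated aconitase (0.17), were also in that group. MUSK, the receptor kinase of the neuromuscular junction, was higher without overlap (4.56, 4.34 and 4.30 against 3.99, 4.23 and 4.25), by 0.25 (SE 0.13, limma adjusted p = 0.639). The affected birds, none with W transcripts, had MUSK at 4.61 to 5.09, above the birds with W transcripts. MAP1B in birds 2, 3 and 6 ran from 3.81 to 5.65, a range wider than the difference between the groups.

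**Figure D5:**
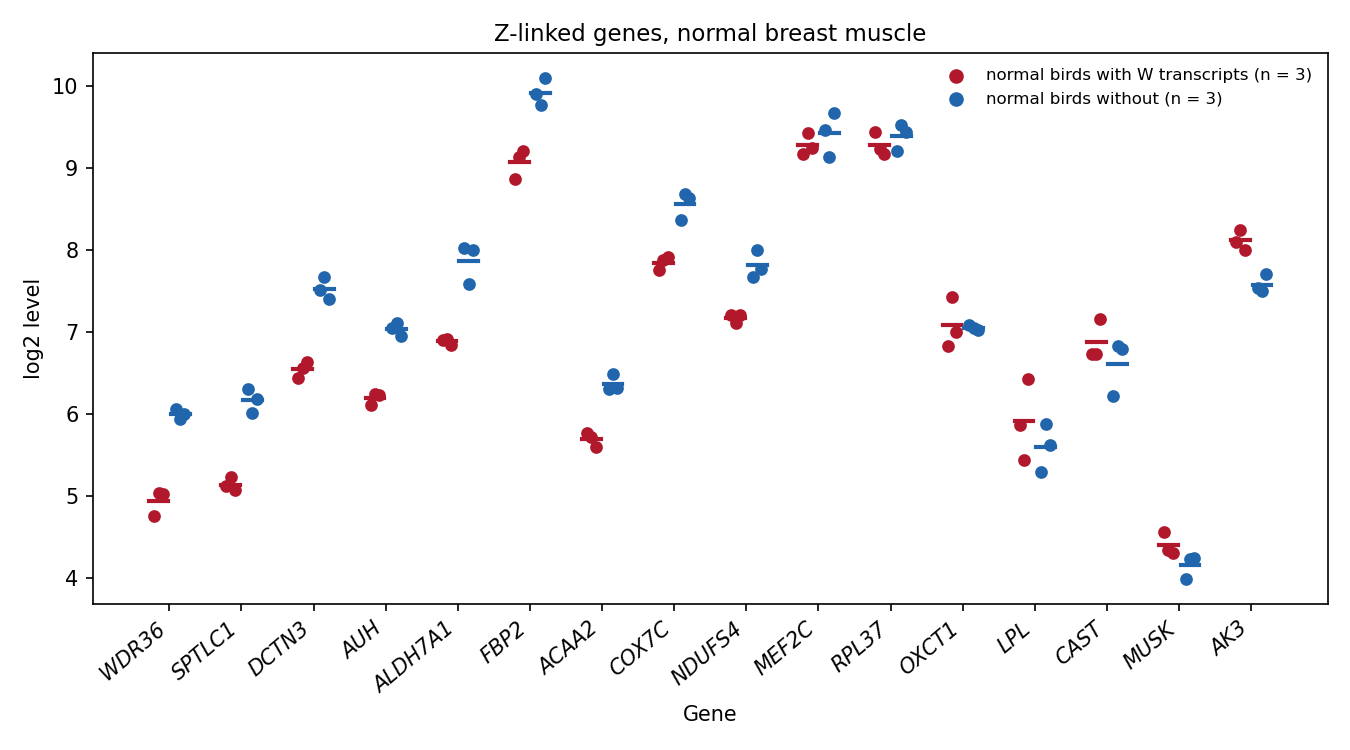
Log2 levels of 16 Z-linked genes in the 6 normal birds, with 1 point per bird and a bar at each group mean. The 9 genes from WDR36 to NDUFS4 are lower in all 3 birds with W transcripts, MEF2C, RPL37, OXCT1, LPL and CAST overlap, and MUSK and AK3 are higher.

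Outside the sex chromosomes few named genes passed. Of 11707 autosomal clusters 3 rose (0.0256%) and none fell, while 974 had an unadjusted p under 0.05 (8.32%) and 14.1% did not overlap between the groups. The 3 that rose were a pair of myosin heavy chains and a growth factor.

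MYH1D, a fast skeletal myosin heavy chain of chromosome 18, had levels of 7.75, 8.09 and 7.39 against 5.15, 5.67 and 5.90, a difference of 2.17 (SE 0.24, limma adjusted p = 0.0126). MYH15, a myosin heavy chain of chromosome 1 known from the chicken heart ventricle, had 6.02, 5.14 and 5.05 against 2.95, 2.97 and 3.33 (2.32, SE 0.26, limma adjusted p = 0.0141). TGFB3, a ligand of the transforming growth factor beta family on chromosome 5, had 9.59, 9.22 and 9.19 against 7.42, 8.04 and 8.06 (1.49, SE 0.21, limma adjusted p = 0.047). The groups did not overlap for any of the 3.

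In the 6 affected birds, none with W transcripts, the same genes reached the levels of the birds with W transcripts. MYH1D lay there at 4.91 to 8.78, MYH15 at 3.36 to 7.97 and TGFB3 at 8.74 to 10.2. With 12 arrays in the limma fit the adjusted p-values of the 3 genes were 0.351, 0.42 and 0.126. The differences were the same there, and the spread included that among the affected birds. MYH1D lost its call without bird 1, 3 or 4, MYH15 without bird 2, 3 or 4, and TGFB3 without any of the 6 birds, with limma adjusted p-values then of up to 0.0851, 0.104 and 0.162. The levels of markers of other cell types in these birds are given below, and their part in these differences was not tested.

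SPP1, the secreted matrix protein osteopontin, had levels of 7.69, 6.28 and 7.86 against 4.11, 4.83 and 4.69 (2.73, SE 0.41, limma adjusted p = 0.0703). It passed with 12 arrays (limma adjusted p = 0.0106), and the affected birds lay at 6.80 to 8.33, again without W transcripts. CST3, the protease inhibitor cystatin C, had 9.49, 9.43 and 9.22 against 8.40, 8.65 and 8.54 (0.85, SE 0.13, limma adjusted p = 0.0746). The affected birds had CST3 at 8.24 to 9.85, reaching the levels of the birds with W transcripts. CETN1 was the other autosomal gene that rose in the 12-array fit; it was named after its values were seen.

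The autosomal genes with the smallest p in the lower direction were SLC27A1, ALPK1, GCAT, AMOTL1 and PNPLA2, none of which passed. SLC27A1, a fatty acid transporter, had levels of 4.81, 4.92 and 4.77 against 6.19, 5.70 and 5.69 (-1.03, SE 0.16, limma adjusted p = 0.0824). PNPLA2, the triglyceride lipase that opens lipid droplet breakdown, had 6.16, 6.24 and 6.20 against 6.97, 7.13 and 6.69 (-0.73, SE 0.14, limma adjusted p = 0.142). ALPK1, an alpha kinase, GCAT, of threonine breakdown, and AMOTL1, of cell junctions, differed by -1.08, -0.72 and -0.71. For all 5 genes the normal groups lay apart, as they did for 801 autosomal clusters (6.84%) in the lower direction. The 5 were picked by p from the same values, so nothing is read from this. In the affected birds, none with W transcripts, GCAT (4.89 to 5.54), ALPK1 (4.16 to 5.26) and AMOTL1 (5.67 to 6.47) reached the levels of the birds with W transcripts. SLC27A1 (5.30 to 6.25) and PNPLA2 (6.57 to 7.77) stayed above them.

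Fibre-type genes apart from the 2 myosins showed no call. Of 18 measured fast fibre genes 1 rose (MYH1D) and 13 were below 0, with a median of -0.05. Of 19 slow fibre genes 1 rose (MYH15) and 12 were above 0, with a median of 0.27, compared with 0.010 over all clusters. The mean level of the slow fibre list was 6.77, 6.60 and 6.40 in birds 1, 4 and 5 against 5.63, 6.50 and 6.19, so the groups overlapped and bird 2 was lowest. Without bird 2 the median difference of the slow fibre list was 0.15.

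Genes of sex determination and gonads gave no call among 13 measured, with a median of 0.07. DMRT1, the Z-linked gene that directs testis formation in chickens, had low and overlapping levels of 3.89, 3.67 and 3.66 against 3.68, 3.90 and 3.71. FOXL2, a factor of ovary formation, differed by 0.17 with overlap. ESR1, an estrogen receptor, had 4.04, 4.50 and 4.59 against 4.98, 4.07 and 4.92, also with overlap.

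Sex steroid receptors and steroid enzymes gave no call among 21 measured, with 16 below 0 and a median of -0.14. The member with the smallest p was HSD17B4, a Z-linked enzyme of peroxisomal fatty acid and steroid metabolism. Its levels were 5.94, 6.14 and 5.82 against 6.38, 6.40 and 6.53 (-0.47, SE 0.13, limma adjusted p = 0.330), without overlap.

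The growth hormone, insulin-like growth factor (IGF) and myostatin list gave no call among 27 measured, with 13 below 0 and a median of 0.0048. IGF1R, the IGF receptor, had levels of 5.70, 5.56 and 5.62 against 6.00, 5.97 and 5.98 (-0.36, SE 0.11, limma adjusted p = 0.383), without overlap. Ubiquitin ligases and proteolysis gave no call among 24 (median -0.14). FBXO32, the muscle ubiquitin ligase atrogin-1, had 5.82, 5.77 and 6.10 against 6.37, 6.90 and 6.47 (-0.68, SE 0.17, limma adjusted p = 0.298), also without overlap. In the affected birds FBXO32 (5.98 to 6.81) reached the levels of the birds with W transcripts, while IGF1R (5.72 to 6.08) stayed above them.

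Oxidative phosphorylation (38 measured, median -0.10), lipid uptake, storage and synthesis (35 measured, median -0.11) and circadian clock and stress genes (29 measured, median -0.04) gave no call. PDK4, which holds back glucose oxidation, was the member of the clock and stress list with the smallest p. It had 6.43, 7.20 and 6.82 against 9.19, 8.68 and 6.97, so its groups overlapped through bird 6 (-1.47, limma adjusted p = 0.457).

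Markers of other cell types gave no call in any of the 7 lists. All 16 measured fibroblast and matrix markers were above 0, with a median difference of 0.71, and 3 were higher without overlap (7.27% of all clusters were). VIM, an intermediate filament of connective tissue cells, had a mean level of 10.35 ± 0.10 (SD, n = 3) against 9.87 ± 0.14 (SD, n = 3) without overlap (0.48, SE 0.13, limma adjusted p = 0.311). The affected birds, none with W transcripts, had VIM at 10.02 to 10.55, reaching the levels of the birds with W transcripts. The mean level of the 16 markers was 7.78, 7.79 and 7.96 in birds 1, 4 and 5 and 6.17, 7.39 and 7.95 in birds 2, 3 and 6. The groups overlapped, and without bird 2 the median difference of the list was 0.05, with 11 of 16 above 0.

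Leukocyte markers had a median of 0.18, with 14 of 16 above 0 and 3 higher without overlap (7.27% of all clusters were). Their mean level ran from 5.48 to 5.65 with W transcripts and from 4.92 to 5.60 without, and without bird 2 the median difference was 0.05. Markers of satellite cells and regenerating fibres had a median of 0.16 (9 of 11 above 0), and of 0.12 without bird 2. Their mean levels were 5.63 to 5.77 against 5.26 to 5.53, which did not overlap. Of the 11 members, 3 were higher without overlap (7.27% of all clusters were). NCAM1, an adhesion molecule of regenerating and denervated fibres, had 7.55, 7.25 and 7.41 against 5.99, 6.12 and 7.09 (1.01, SE 0.28, limma adjusted p = 0.345). The affected birds had NCAM1 at 6.58 to 8.63, reaching the levels of the birds with W transcripts. Adipocyte, endothelial, erythroid and nerve markers had medians of 0.05 to 0.11.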

How the data were processed

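Per the labels' protocols, 150 ng of total RNA per bird was labelled with a whole-transcript kit, and each bird had 1 array. Partek is named in the submitters' processing notes. How background was corrected, how probes were summarized and which genome build was used is not given in the sources used here. Each number in the authors' deposited file was read as a log2 level of a transcript cluster, with the base inferred from their range of 1.04 to 12.9.

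Of 20804 clusters 12300 had 1 gene symbol, 256 several and 8248 none. Symbols and chromosomes came from the platform annotation and a RefSeq gene table of assembly GRCg7b, which matched 11727 clusters by Entrez ID, 551 by symbol and 16 by synonym. A gene with several clusters was represented by the brightest, and 895 rows were exact repeats.

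Differences came from a linear model (limma 3.58.1 under R 4.3.3, moderated by eBayes, residual degrees of freedom 4, prior 3.69) with Benjamini-Hochberg adjustment over all clusters. No filter was applied. The number of arrays limits the precision. Alternatives covered normalization, filters, variance models, all 12 arrays, named clusters, repeated rows, a split by ATP5F1AW and each array left out. The split by ATP5F1AW gave the same groups, so it repeats the 6-array fit and could not differ from it.

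The groups, gene lists and tests were chosen with earlier results of these data known. Named genes were those on the W, Z partners, the 12 lower and 8 higher Z-linked genes and 5 autosomal genes per direction by smallest p, Z-linked muscle genes, up to 4 passing members of each other list, or else the member with the smallest p, and DMRT1 and ESR1. Placeholder names were left out except on the W. LOC100859072, the unnamed clusters, HSDL2 and the genes that end each Z window were named after their values were seen.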

Additional observations from a re-analysis of the deposited data

Results flagged for a closer look

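Among 15 sets of 6 arrays examined for a value far from the others, 3 held such a value, where chance gives about 1 in 20. The mean log2 level of the fibroblast and matrix markers was 6.17 in normal bird 2, a bird without W transcripts, while the other normal birds lay at 7.39 to 7.96. The mean level of the leukocyte markers was 4.92 in the same bird, with the other normal birds at 5.48 to 5.65. The mean level of the erythroid markers was 4.62 in affected bird 4, with the other affected birds at 4.18 to 4.30. That bird enters only the levels given for the affected birds, the comparisons with all 9 arrays without W transcripts and the 12-array fit.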

How the results depend on the processing

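Calls over all clusters, 48 with 6 arrays, numbered 101 with 12 arrays, 17 among clusters with 1 symbol and 38 to 47 when each bird was left out. With repeated rows counted once they numbered 35. The higher share of calls, W-linked ones included, was 91.7% with 6 arrays and 83.6% after centring on autosomal clusters. That share was 80.0% among clusters above the median level, 76.5% among clusters with 1 symbol and 56.4% with 12 arrays. Z-linked calls numbered 35 with 12 arrays and 2 to 6 with a bird left out, against 6. They numbered 9 after centring on autosomal clusters, above the lower quartile of levels and above the median level, and 4 with a robust trend. Autosomal calls numbered 5 among clusters above the median level and 1 to 8 with a bird left out, against 3. Calls among list members outside the W numbered 4 with 12 arrays and 0 to 4 with a bird left out, against 2. The Z-linked median less the autosomal median, -0.13, was -0.22 above the lower quartile of levels, -0.36 above the median level and -0.16 to -0.12 with a bird left out. The autosomal median lay between -0.042 and 0.023 in these settings, and no called difference of a named gene changed its direction. TGFB3 also lost its call under quantile normalization and with repeated rows counted once, AUH with a variance trend, and AUH and DCTN3 with a robust trend. Except where these filters take out clusters and left-out birds remove arrays, the cause was not tested. No background level per cluster was used here, so for dim clusters a difference near 0 cannot be told from a level below detection. No paired analysis was possible because the numbers of the birds only name them in deposited order and link no bird of a group to a bird of the other.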

Other observations

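Mitochondrially encoded transcripts were measured by 16 clusters, of which 13 were above 0 in the birds with W transcripts, with a median difference of 0.24 compared with 0.010 over all clusters. Below 0 were 3 of the 16 (18.8%), against 47.6% of all clusters. None of the 16 passed limma's adjusted threshold with 6 arrays, and 1 did with 12 arrays, where 0.485% of all clusters were called. The nuclear genes of oxidative phosphorylation had a median of -0.10 in the same fit, with 26 of 38 below 0. Their mean level was 7.27 to 7.53 on the normal arrays. Autosomal clusters at levels between 7 and 8 had a similar median of -0.088, with 65.8% below 0.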
